A study of Mus musculus with 19 samples.

Results

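NF-κB is a family of transcription factors that carries inflammatory signals from receptors such as the TNF receptor to the genome. The open chromatin around its genes was measured in mouse neural stem and progenitor cells (NSPs) and in cells differentiating from them towards astrocytes. The 10 member genes were the subunit genes Nfkb1, Nfkb2, Rela, Relb and Rel, the inhibitor genes Nfkbia, Nfkbib and Nfkbie, the atypical inhibitor gene Bcl3, and Tnfaip3, whose product A20 dampens TNF signalling. A peak was taken as a member peak if its centre lay in the body of a member gene or within 20 kb of either end of it in the RefSeq annotation of GRCm38. This rule, which used no measured value, gave 65 of the 90154 peaks in the table, between 1 peak at Rel and 14 at Nfkb1. All 65 were 500 bp apart from start to end, so levels can be compared between peaks, and all 65 passed the filter on low values.

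The cells came from the ventricular zone of wild type C57BL/6J embryos at embryonic day 14 and were grown as floating neurospheres with EGF. Differentiation was started by exchanging that medium for one with 10% serum, without or with tumor necrosis factor (TNF) at 50 ng/ml. The assay was ATAC-seq, where a transposase inserts adapters into accessible DNA. There were 19 libraries in 6 groups, namely NSPs (n = 3), 24 h (n = 3), 24 h TNF (n = 3), 72 h (n = 3), 72 h TNF (n = 3) and 1 week without TNF (n = 4). The labels say that cells were isolated from single brains, but not which libraries came from which brain. P-values therefore measure the spread between these libraries, which may be technical. No group carried a genetic change.

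In resting cells NF-κB dimers are held in the cytoplasm by inhibitor proteins of the IκB family. TNF leads to the degradation of the inhibitors, the dimers move into the nucleus, and among the genes they switch on are those of their own inhibitors and subunits, a feedback that is well known in many cell types. In astrocytes NF-κB is known as a mediator of the reactive state.

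Values are normalised reads, the whole reads of a library in a peak divided by a size factor of that library. Reads in peaks ranged from 28636739 to 39349111 in NSPs and from 9640256 to 25165008 over the other groups, and NSP replicate 1 stood apart from the other NSP libraries. The chi-square difference per peak between it and the others was 24.4 to 27.7, against 3.72 between those others. Library names of the 72 h, 72 h TNF and 1 week samples carried a tag that the other names lacked, so that tag and group cannot be told apart in the comparison of 72 h with NSPs. Of the 212 peaks at 3 reads or fewer in every tagged library and at 20 or more in every untagged library, 0 were member peaks. Of the 10 astrocyte markers, 8 had a peak within 1 kb of a gene start or end, while Aqp4 and Slc1a2 had none. The Gfap peak averaged 108 normalised reads in NSPs, 489 at 24 h, 529 at 72 h and 258 at 1 week. With TNF it averaged 369 at 24 h and 246 at 72 h. From NSPs to 72 h the means also rose at Gja1 (91.8 to 218) and Slc1a3 (251 to 270). They fell at Aldh1l1 (89.3 to 40.1), S100b (562 to 282), Fgfr3 (541 to 334), Sox9 (875 to 730) and Aldoc (465 to 456). Of the 8 progenitor markers, 7 had one, and the Hes5 peak averaged 1976 in NSPs, 744 at 24 h and 93.0 at 1 week. The summed progenitor level was 5423 to 6121 in NSPs and at most 3512 in the other libraries, while the summed astrocyte level of NSPs, 2769 to 3400, overlapped with or exceeded that of each other group. Peaks of the other cell types were found at 3 of 10 microglia and macrophage markers, 4 of 7 neuron markers, 3 of 7 oligodendrocyte lineage markers, 1 of 5 endothelial markers and 1 of 6 fibroblast and pericyte markers. The microglia and macrophage peaks lay at Tmem119 (means of 83.2 without and 74.8 with TNF at 24 h, 55.4 and 64.2 at 72 h), P2ry12 (57.4 and 42.9, 62.3 and 43.2) and Spi1 (199.6 and 209, 242 and 261), and no peak lay at Aif1, Csf1r, Cx3cr1, Trem2, Itgam, Cd68 or Ptprc. The summed microglia and macrophage level was 335 to 350 without and 307 to 345 with TNF at 24 h, and 327 to 386 without and 341 to 415 with TNF at 72 h. The summed astrocyte level was 2397 to 2815 without and 2121 to 2340 with TNF at 24 h, and 2803 to 2962 without and 2310 to 2368 with TNF at 72 h, so that the groups did not overlap. The progenitor sums overlapped at 24 h but were 2539 to 2919 without and 2979 to 3226 with TNF at 72 h. The oligodendrocyte lineage sums were 852 to 1039 without and 759 to 828 with TNF at 24 h, and 836 to 865 without and 905 to 997 with TNF at 72 h, so that they lay lower with TNF at 24 h and higher at 72 h. The sums of the neuron, endothelial, and fibroblast and pericyte lists overlapped at both times. These ranges stand beside every TNF comparison that follows, and their part in those results was not tested. In bulk libraries fewer cells of a type and less open chromatin per cell cannot be told apart.

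The sequences just before the annotated starts of the members are shown first, because 6 of the 8 peaks at annotated starts were called more open with TNF at 72 h. That share was 6.24% over all peaks tested and 3.29% over those less than 1 kb from a gene end. The count of calls at starts and gene ends depended on single libraries and on scaling, as given below. RefSeq promoter windows of GRCm38.p6 were found for 8 of the 10 members, in all 11 windows, and Nfkb1 and Relb were not among them. Within the 250 bases before each start, the motif GGGANNTTC and the longer NF-κB consensus site were searched on both strands, and the motifs can overlap each other. Capitals mark every match to either motif. The 5 members with a match were Nfkb2, Rel, Nfkbia, Nfkbie and Tnfaip3, while the windows of Rela, Nfkbib and Bcl3 held neither. Counted by window, 7 of the 11 held either motif, those of all 3 Nfkb2 starts among them. Among all 32851 promoter windows of this length, 3.23% held GGGANNTTC, 3.9% held the consensus and 6.46% held either. A match is a string of letters and not a site shown to be bound.
Nfkbia (chr12:55492648-55492897, minus strand): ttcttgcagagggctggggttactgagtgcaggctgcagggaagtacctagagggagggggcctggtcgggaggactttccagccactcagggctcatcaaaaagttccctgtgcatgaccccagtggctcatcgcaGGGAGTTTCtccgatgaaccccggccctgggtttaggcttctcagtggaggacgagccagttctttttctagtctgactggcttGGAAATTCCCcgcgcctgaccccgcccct
Tnfaip3 (chr10:19015411-19015660, minus strand): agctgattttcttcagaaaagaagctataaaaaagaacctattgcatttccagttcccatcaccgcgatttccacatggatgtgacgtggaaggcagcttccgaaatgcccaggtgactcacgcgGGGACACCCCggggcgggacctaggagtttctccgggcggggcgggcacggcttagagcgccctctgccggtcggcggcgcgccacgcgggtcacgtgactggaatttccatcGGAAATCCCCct
Nfkb2 (chr19:46304487-46304736, plus strand): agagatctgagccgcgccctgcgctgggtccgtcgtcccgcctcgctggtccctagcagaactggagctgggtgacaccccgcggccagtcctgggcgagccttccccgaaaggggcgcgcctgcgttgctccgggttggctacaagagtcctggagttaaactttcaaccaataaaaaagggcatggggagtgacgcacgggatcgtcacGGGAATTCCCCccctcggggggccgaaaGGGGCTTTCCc
Rel (chr11:23770970-23771219, minus strand): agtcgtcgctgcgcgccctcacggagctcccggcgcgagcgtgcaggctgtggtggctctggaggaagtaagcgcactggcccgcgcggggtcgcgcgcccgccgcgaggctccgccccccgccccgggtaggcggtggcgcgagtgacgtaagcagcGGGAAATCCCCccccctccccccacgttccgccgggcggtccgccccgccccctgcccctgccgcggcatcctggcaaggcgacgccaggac
Nfkbie (chr17:45555450-45555699, plus strand): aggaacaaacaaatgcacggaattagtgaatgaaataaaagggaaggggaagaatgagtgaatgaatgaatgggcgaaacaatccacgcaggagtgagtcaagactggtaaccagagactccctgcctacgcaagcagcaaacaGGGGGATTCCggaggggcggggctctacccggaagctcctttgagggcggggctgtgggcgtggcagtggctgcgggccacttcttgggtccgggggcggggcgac
The Nfkbia window held a match from 29 to 20 bases before the start and another from 113 to 105. The Tnfaip3 window held matches from 12 to 3 and from 125 to 116 bases before the start. The Nfkb2 window, that of the most upstream of its 3 starts, held overlapping matches from 39 to 29 bases and another from 11 to 2, and the Rel window overlapping matches from 92 to 82. In Nfkbie the match ran from 106 to 97 bases before the start. The windows of the other Nfkb2 starts also held matches, from 236 to 227 and 182 to 174 bases before one start and from 225 to 216 before the other. The start peak covered all 250 bases of the windows of Tnfaip3, Nfkb2, Rel and Nfkbie, but only the 80 bases nearest the start at Nfkbia, with the match from 29 to 20 bases inside the peak and the other outside it.

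Whether TNF changes accessibility around the NF-κB genes was asked by setting TNF-treated against untreated libraries at each time. At 24 h, 11 of the 65 member peaks (16.9%) were called higher with TNF, against 7.06% of the 88919 peaks tested, and 2 (3.08%) were called lower, against 3.53%. At 72 h, 17 member peaks (26.2%) were called higher, against 6.24% of all, and 0 were called lower, against 5.55%. That last count was also 0 with edgeR and with DESeq2, while 3 member peaks were lower at an unadjusted p under 0.05 in limma. Here and below a call is a Benjamini-Hochberg adjusted p under 0.05 in limma-trend, fitted to log2(normalised reads + 1) of all 19 libraries. The median log2 change of the member peaks was 0.22 at 24 h and 0.23 at 72 h, against -0.03 and 0.03 over all peaks. With 3 libraries per group, groups that do not overlap were common. TNF-treated libraries stood wholly above untreated ones at 33.8% of member peaks at 24 h, against 15.2% of all peaks tested. At 72 h the shares were 46.2% and 17.6%. They stood wholly below at 9.23%, against 14.4%, at 24 h and at 4.62%, against 15.3%, at 72 h.

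The called peaks with the largest changes lay inside genes or in their flanks rather than at starts. Higher calls were found at both times for 9 member peaks, of which 4 belonged to Bcl3, 2 to Nfkbia and 1 each to Nfkb1, Nfkbie and Tnfaip3. A further 2 were called higher at 24 h and 8 at 72 h without a call at the other time. For none of the 65 did the change with TNF differ between the times by the interaction test, against 0.00112% of all peaks. The same count was 0 in edgeR and in DESeq2, and 5 member peaks had an unadjusted p under 0.05 for the interaction in limma. The log2 change had the same sign at both times at 53 of the 65 peaks. For this sign count, and for the counts called at both times or at only 1, no share over all peaks is given. They describe the members alone.

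**Figure D1:**
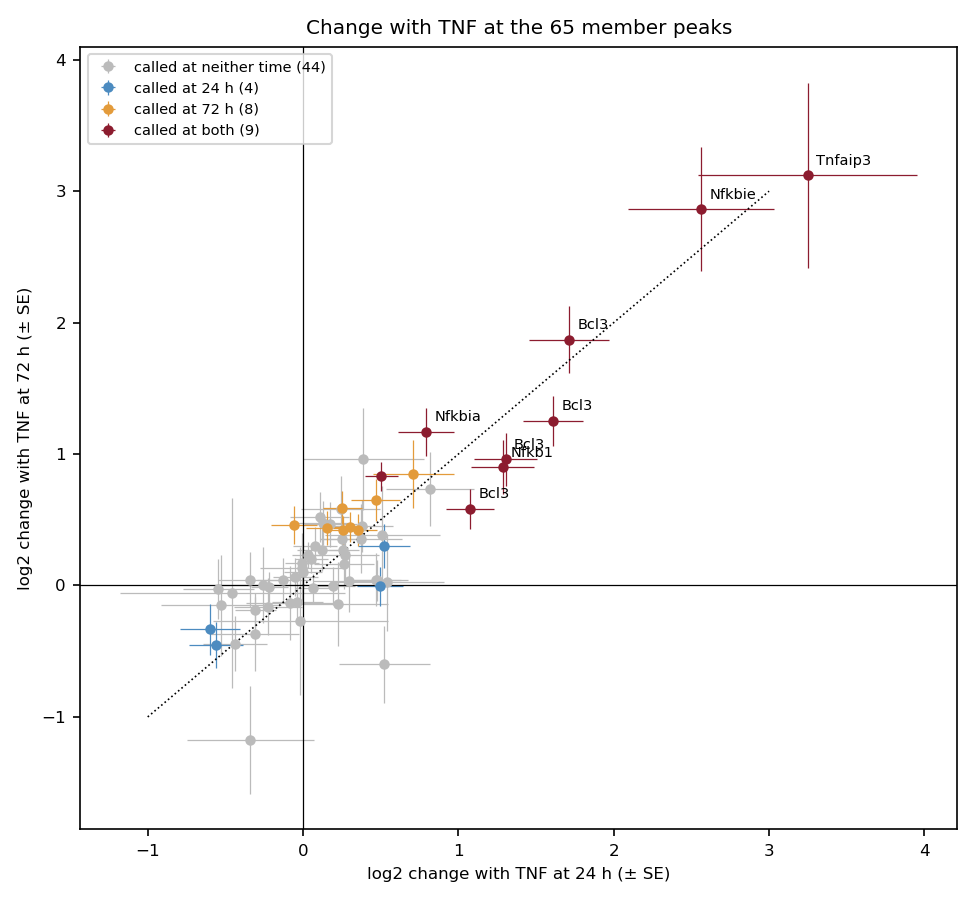
Each point is 1 of the 65 member peaks, with its log2 change with TNF at 24 h on the x axis and at 72 h on the y axis, both ± SE; the dotted line marks equal change. The peaks in Tnfaip3 and Nfkbie stand at the upper right, with changes of 3.25 and 2.56 at 24 h and 3.12 and 2.86 at 72 h, followed by peaks in or near Bcl3, Nfkb1 and Nfkbia.

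Tnfaip3 encodes A20, a ubiquitin-editing enzyme that shuts down signalling from the TNF receptor. The member peak with the largest change with TNF at both times lay inside this gene, 2461 bp past the start (chr10:19009252-19009752). Its values were 3.42, 8.85 and 6.16 normalised reads at 24 h and 57.5, 69.0 and 64.4 at 24 h TNF. They were 1.29, 10.8 and 17.8 at 72 h and 58.1, 66.5 and 82.8 at 72 h TNF. Every TNF-treated library stood above every library without TNF, the NSP libraries (9.35, 7.07 and 0.664) and the 1 week libraries (0.882, 10.1, 11.0 and 5.36) included. The log2 change (± SE) was 3.25 ± 0.70 at 24 h (adjusted p = 0.00234) and 3.12 ± 0.70 at 72 h (adjusted p = 0.00329). Only 21 of all peaks tested had a larger log2 change at 24 h, and 33 at 72 h. Several of the untreated values are those of a few reads, so these log2 changes depend on the pseudocount, and with 8 in place of 1 the change in Tnfaip3 peak p06795, as it is numbered in the table, was 2.35.

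The start of Tnfaip3 was already open in every group (chr10:19015164-19015664). It held 541, 519 and 406 normalised reads at 24 h and 579, 614 and 543 at 24 h TNF. At 72 h it held 404, 427 and 395, and 566, 605 and 683 at 72 h TNF. The groups did not overlap at either time, but the change passed the test at 72 h and not at 24 h. Fitted log2 changes (± SE) were 0.25 ± 0.13 at 24 h and 0.59 ± 0.13 at 72 h, with adjusted p-values of 0.234 and 0.00189. Another Tnfaip3 peak, 848 bp past the far end of the gene (chr10:18999812-19000312), was called higher with TNF at 72 h, with a mean of 78.3 ± 12.8 (SD) without and 142 ± 22.8 (SD) with TNF. That call was lost without 72 h replicate 2 or 3, without 72 h TNF replicate 1 or 3, and with scaling by total reads.

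Nfkbie encodes IκBε, an inhibitor known to be induced late in NF-κB responses. A peak inside it, 1877 bp past the start (chr17:45557327-45557827), was low in every untreated library. It held 13.7, 11.8 and 8.62 normalised reads at 24 h and 84.9, 77.6 and 54.0 at 24 h TNF. At 72 h it held 14.2, 20.3 and 20.4, and 122, 166 and 129.6 at 72 h TNF. In NSPs the values were 13.4, 2.83 and 9.97, and at 1 week 4.41, 11.7, 8.80 and 24.7. No TNF-treated library overlapped with any library without TNF, and the untreated values rose from NSPs to 72 h by a log2 change of 1.17. On the log2 scale (± SE) the differences were 2.56 ± 0.47 at 24 h and 2.86 ± 0.47 at 72 h (adjusted p = 0.000407 and 0.000108). The peak at the start of the same gene (chr17:45555404-45555904) did not pass the test. Its means were 276 ± 56.7 (SD) at 24 h, 325 ± 13.2 (SD) at 24 h TNF, 294 ± 35.8 (SD) at 72 h and 379 ± 69.4 (SD) at 72 h TNF. The Nfkbie and Tnfaip3 peaks were the 2 of 65 (3.08%) below 25 in every library without TNF and above 50 in every library with it. These limits were chosen after the values were seen, so that these 2 peaks met them was fixed in advance. The limits were met by 30 peaks (0.0333%) of all. For that reason the 2 shares cannot be read as an excess among the members.

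**Figure D2:**
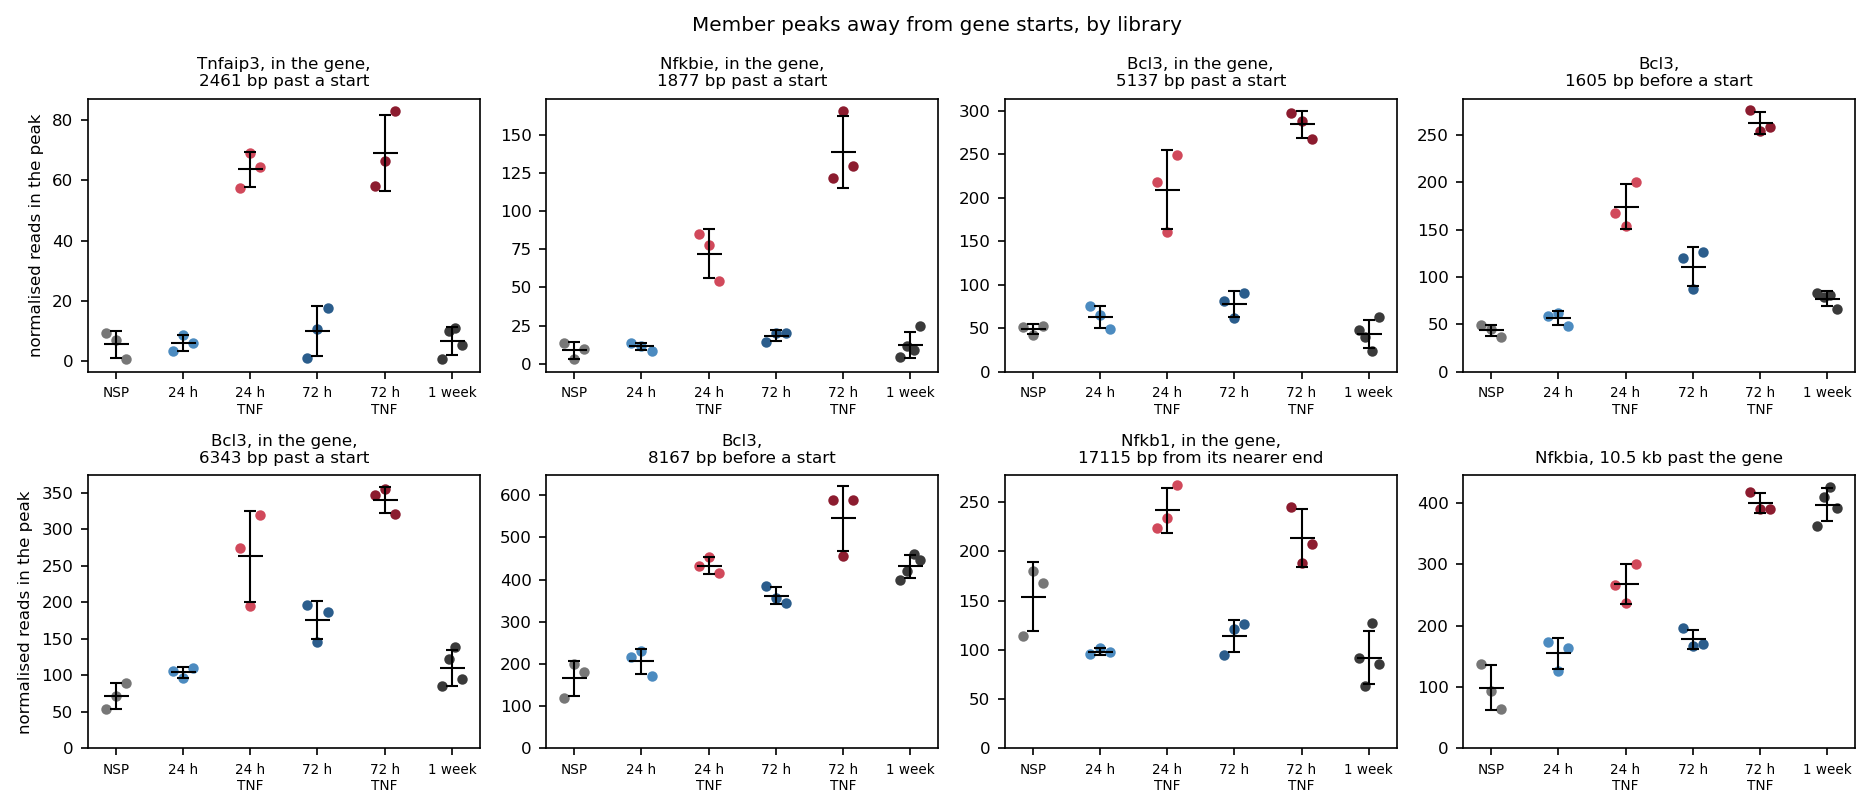
Normalised reads (y axis) of each library (points) in 8 member peaks away from gene starts, by group (x axis); bars are the mean ± SD of 3 libraries, or 4 at 1 week. In each panel the TNF-treated libraries stand above the untreated libraries of the same time.

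Bcl3 encodes an atypical IκB protein that sits in the nucleus and binds p50 and p52 dimers. No peak in the table lay within 1 kb of its annotated starts, and 4 of its 7 peaks were called higher with TNF at both times. The peak with the smallest p at 24 h lay 1605 bp before the start (chr7:19824110-19824610). It held 59.2, 62.0 and 48.0 normalised reads at 24 h and 168, 154 and 200.4 at 24 h TNF. It held 119.7, 87.3 and 126 at 72 h and 276, 254 and 258 at 72 h TNF, again without overlap. These are log2 changes (± SE) of 1.61 ± 0.19 at 24 h and 1.25 ± 0.19 at 72 h, with adjusted p = 1.15e-06 and 4.27e-05. The peak with the smallest p at 72 h lay inside the gene, 5137 bp past the start (chr7:19817368-19817868). It held 75.1, 64.9 and 49.3 at 24 h and 218, 161 and 249 at 24 h TNF. It held 81.1, 62.2 and 90.5 at 72 h and 298, 288 and 268 at 72 h TNF. The lowest TNF-treated library lay above the highest untreated library of its time. The log2 change (± SE) was 1.71 ± 0.25 at 24 h (adjusted p = 3.26e-05) and 1.87 ± 0.25 at 72 h (adjusted p = 8.9e-06).

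The other Bcl3 peaks called at both times lay 6343 bp past the start and 8167 bp before it. Their log2 changes were 1.30 and 1.08 at 24 h and 0.96 and 0.58 at 72 h, and the last of these calls was lost without 72 h TNF replicate 1 or 3. The 3 Bcl3 peaks that did not pass lay 7.5 to 18.2 kb past the gene, near or within Cblc, with log2 changes between 0.18 and 0.54 at 24 h. Summed over its 7 peaks, the Bcl3 locus held 619.8 ± 18.9 normalised reads at 24 h and 1316 ± 118 at 24 h TNF, and 1029 ± 64.7 at 72 h and 1787 ± 91.2 at 72 h TNF (mean ± SD, n = 3 each). The lowest TNF-treated library exceeded the highest untreated library at both times.

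Nfkbia encodes IκBα, the inhibitor that TNF signalling degrades first and that NF-κB induces again. Its start peak (chr12:55492227-55492727) held 679.7, 745 and 599.8 normalised reads at 24 h and 868, 959.9 and 1037 at 24 h TNF. It held 476, 524 and 538 at 72 h and 837, 929.7 and 969.7 at 72 h TNF. The TNF-treated libraries were all higher than the untreated libraries of their time, and this was the only start peak of a member called at both times. Fitted log2 changes (± SE) were 0.50 ± 0.11 at 24 h and 0.83 ± 0.11 at 72 h, with adjusted p-values of 0.00192 and 3.94e-06. A distal peak 10.5 kb past the far end of the gene (chr12:55478643-55479143) had larger log2 changes. It held 174, 127 and 164 at 24 h and 266, 237 and 301 at 24 h TNF. It held 196, 166 and 171 at 72 h and 418, 390.2 and 390.1 at 72 h TNF. Treated and untreated libraries did not overlap at either time. On the log2 scale (± SE) the differences were 0.79 ± 0.18 at 24 h and 1.17 ± 0.18 at 72 h (adjusted p = 0.00385 and 5.54e-05). Unlike the peaks inside Tnfaip3 and Nfkbie, it also stood high at 1 week without TNF, at 363, 409, 427 and 391. A peak 2638 bp before the start was called at 24 h, with a log2 change of 0.52. That call was lost without any 1 of the 6 libraries compared, with total-read scaling, in a fit of the compared groups alone and in edgeR.

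Nfkb1 encodes p105, the precursor of the p50 subunit. Of its 14 peaks, 1 inside the gene (chr3:135674604-135675104), 17115 bp from the nearer gene end, was called at both times. It held 95.6, 102 and 97.3 normalised reads at 24 h and 223.7, 234 and 267 at 24 h TNF. It held 95.2, 121 and 126 at 72 h and 245, 188 and 208 at 72 h TNF. All TNF-treated libraries lay above all untreated libraries, NSPs included. These are log2 changes (± SE) of 1.29 ± 0.20 at 24 h and 0.90 ± 0.20 at 72 h, with adjusted p = 7.52e-05 and 0.00345. The untreated values fell from NSPs (114, 180.4 and 167) to 24 h by a log2 change of -0.62. The peak 501 bp inside a gene end (chr3:135691218-135691718) was called at 72 h, with a mean of 161 ± 17.4 (SD) without and 223 ± 34.4 (SD) with TNF. It lost that call under 8 of 15 alternatives.

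Nfkb2 encodes p100, the precursor of p52 in the slower, non-canonical branch. Both peaks at its starts were called higher at 72 h. The peak 130 bp before the upstream start (chr19:46304357-46304857) held 825, 811 and 849 normalised reads at 72 h and 1060, 1104 and 1168 at 72 h TNF. The peak 23 bp before another start (chr19:46305422-46305922) held 278, 291 and 282 at 72 h and 349.6, 409 and 382 at 72 h TNF. In both peaks each TNF-treated library was higher than each untreated one of this time. This was a log2 change of 0.42 ± 0.11 (SE, adjusted p = 0.00802) for the peak nearer the upstream start. The fitted log2 change was 0.42 ± 0.12 (SE, adjusted p = 0.0211) for the other. Leaving out single libraries ended the call of the second peak 4 times and that of the first never. Loess scaling ended the call of the first, and scaling by total reads that of the second (0.34, adjusted p = 0.0557). At 24 h their log2 changes were 0.26 and 0.35, with adjusted p-values of 0.132 and 0.0604. A peak 9.3 kb past the gene, inside the neighbour Psd, was called higher at 72 h (0.65), and a peak 14.7 kb outside it, at an end of Gbf1, was called lower at 24 h (-0.60). The Gbf1 call was lost whenever 1 of the 6 libraries compared was left out.

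Rela and Rel encode p65 and c-Rel, the subunits that carry activation domains in the canonical branch. The Rela start peak (chr19:5637170-5637670) held 435, 422 and 393 normalised reads at 72 h and 555, 528 and 622 at 72 h TNF, without overlap. Fitted across libraries, the change came to 0.44 ± 0.11 (log2, SE, adjusted p = 0.00979) at 72 h. The only Rel peak, at its start (chr11:23770825-23771325), held 450.4, 541 and 552 at 72 h and 619.6, 692 and 780.1 at 72 h TNF, also without overlap. On the log2 scale the difference was 0.44 ± 0.13 (SE, adjusted p = 0.0257) at 72 h. The Rela call was lost without 72 h replicate 3 or 72 h TNF replicate 3, and the Rel call without 72 h replicate 1 or 72 h TNF replicate 2 or 3. At 24 h neither was called, with log2 changes of 0.30 and 0.15. At Rela a peak 15.6 kb past the gene, at the ends of Sipa1 and Pcnx3, was called higher at 24 h (0.50). That call was lost without 24 h replicate 1 or 2 and without 24 h TNF replicate 2 or 3.

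Relb and Nfkbib were the members without a higher call at either time. Relb encodes a partner of p52 in the non-canonical branch. Its gene-end peak (chr7:19628494-19628994) held 713, 769 and 679.9 normalised reads at 24 h and 852, 922 and 812 at 24 h TNF. It held 884, 901 and 981 at 72 h and 1034, 1150 and 1161 at 72 h TNF. Groups did not overlap at either time, but neither change passed the test. The log2 change (± SE) was 0.26 ± 0.10 at 24 h (adjusted p = 0.103) and 0.27 ± 0.10 at 72 h (adjusted p = 0.0751). The change at 24 h was called with scaling by total reads (0.27, adjusted p = 0.0394) and with loess scaling (0.29, adjusted p = 0.0122), and that at 72 h in DESeq2 (adjusted p = 0.0417). Nfkbib encodes IκBβ, and the peak at its start, shared with the neighbour Sirt2 (chr7:28766388-28766888), had log2 changes of -0.01 at 24 h and 0.17 at 72 h. The peak 13.6 kb before the start, inside Sirt2, which had a log2 change of 0.47 at 24 h (adjusted p = 0.0501), was called higher with a pseudocount of 8, without the filter on low values and without 24 h replicate 1. A peak 2602 bp before the start, also in Sirt2, was called lower at 24 h, with 298, 311 and 272 without and 209.6, 179.9 and 208 with TNF. That call was lost when any library compared but 24 h replicate 3 was left out. The peak 17.4 kb before the start, also in Sirt2, held 33.5, 26.3 and 19.1 at 72 h and 7.15, 23.6 and 7.20 at 72 h TNF, which did not pass the test (-1.17), although it did so with total-read scaling, without the filter and without 72 h TNF replicate 2 (-1.71).

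The members were then read by position, with no test of the difference between positions. Of the 10 peaks at a start, or at a gene end for Nfkb1 and Relb, 7 were called higher with TNF at 72 h and 1 at 24 h. Among the 13342 tested peaks less than 1 kb away from any protein-coding gene's end, 3.29% were called higher at 72 h and 1.97% at 24 h. All 10 had a log2 change above 0 at 72 h, with a median of 0.43 against 0.12 for the gene-end peaks of the table. These sets, here and below, are not defined alike. The gene-end peaks of the table lie at either end of a gene. Both Nfkb2 start peaks fall outside that set, 3613 and 4678 bp from the nearer gene end. Member peaks at the far ends of Rela, Nfkbie and Tnfaip3 were counted as flank. The count of 7 fell to 3 without 72 h TNF replicate 3, to 4 without 72 h replicate 1 or 72 h TNF replicate 2 and to 5 with scaling by total reads, with loess scaling or without 72 h replicate 3, while the sign of all 10 stayed. Inside gene bodies, 5 of 19 peaks were called higher at each time, and 5 of 36 in the flanks. Of the 75577 tested peaks further from any gene end, 7.95% were called higher at 24 h and 6.76% at 72 h. Of the 18 member peaks in the body of another protein-coding gene, 1 was called higher at each time, against 10 and 16 of the 47 others.

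**Figure D3:**
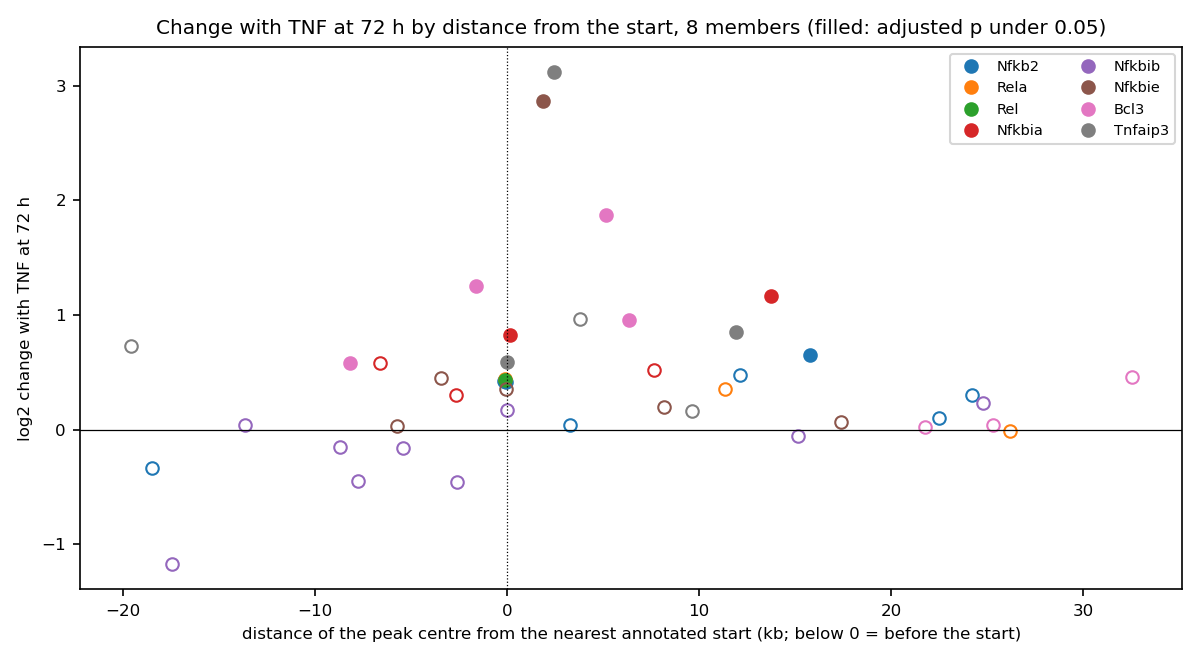
Log2 change with TNF at 72 h (y axis) of the peaks of the 8 members with an annotated start, by distance of the peak centre from the nearest start (x axis, kb, below 0 before the start); filled points have an adjusted p under 0.05. The largest changes, 3.12 in Tnfaip3 and 2.86 in Nfkbie, lie 2461 and 1877 bp past the start, and the start peaks lie between 0.17 and 0.83.

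Sums over all peaks of a locus were compared next, without a test. Summed over 6 peaks, Tnfaip3 held 796 ± 62.4 normalised reads at 24 h, 1068 ± 65.9 at 24 h TNF, 680.4 ± 10.4 at 72 h and 1080 ± 101 at 72 h TNF. Summed over 5 peaks, Nfkbia held 1289 ± 107, 1753 ± 92.0, 1103 ± 62.9 and 1876 ± 60.4 in the same order. At these loci and at Bcl3, Nfkb1, Nfkb2 and Rela the TNF-treated sums lay above the untreated sums at both times, without overlap. No share over the loci of other genes is given, so this count describes the members alone. At Rel, with its single peak, and at Nfkbie they overlapped at 24 h and not at 72 h. At Relb, over 6 peaks, the sums were 4042 ± 296, 3842 ± 216, 3687 ± 337 and 3870 ± 348, and they overlapped at both times. Most of the Relb sum came from peaks inside the neighbour Clasrp. The largest of those, 5.4 kb outside Relb, averaged 2610, 2242, 1935 and 1919 in the same order. The Relb gene-end peak alone did not overlap at either time, as given above. At Nfkbib, over 9 peaks, the 24 h TNF sums lay within the range of the 24 h sums, while those at 72 h TNF lay above those at 72 h.

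How the loci changed as NSPs differentiated without TNF was asked next. From NSPs to 24 h, 16 member peaks (24.6%) were called higher, against 24.2% of all peaks, and 15 (23.1%) lower, against 23%. From NSPs to 72 h, 20 (30.8%) were called higher, against 28.3%, and 20 (30.8%) lower, against 30.9%. These shares are close to those of the whole table. With total-read scaling, under which the median of all peaks went from -0.07 up to 0.11 (24 h) and from -0.06 up to 0.21 (72 h), the member counts became 20 higher and 6 lower at 24 h and 26 higher and 15 lower at 72 h. With loess scaling those at 72 h became 24 and 16. These comparisons share the NSP libraries, and the TNF and 1 week comparisons share the 72 h or 24 h libraries with them. Without NSP replicate 1 the counts were 14 and 18 at 24 h, and 20 and 23 at 72 h.

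The largest log2 change of a member peak was at the far end of Tnfaip3 (chr10:18999812-19000312). It held 4.09, 7.54 and 6.64 normalised reads in NSPs, 96.8, 57.5 and 123 at 24 h, 92.6, 68.2 and 73.9 at 72 h and 107, 148, 149.6 and 114 at 1 week. The NSP libraries did not overlap with any other group. Fitted log2 changes (± SE) were 3.69 ± 0.26 for 24 h against NSPs and 3.50 ± 0.26 for 72 h against NSPs, with adjusted p-values of 1.76e-12 and 2.52e-12. Another peak that opened lay inside Relb (chr7:19609528-19610028), 3561 bp from a gene end. It held 2.34, 5.65 and 0.664 in NSPs, 13.7, 22.1 and 11.1 at 24 h, 27.0, 13.2 and 26.8 at 72 h and 73.2, 73.3, 46.2 and 75.1 at 1 week, so that each step from NSPs to 24 h and from 72 h to 1 week was free of overlap. Its log2 changes were 2.26 for 24 h and 2.74 for 72 h against NSPs and 1.58 for 1 week against 72 h. The NSP values are those of a few reads. Of the 7 Bcl3 peaks, 6 (85.7%) were called higher at 72 h than in NSPs, against 28.3% of all peaks. The mean Bcl3 locus sum was 507 ± 66.7 in NSPs against 1029 at 72 h. The peak inside Tnfaip3 that was called higher with TNF did not pass the test in these comparisons, with log2 changes of 0.39 and 0.62.

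Of the 14 Nfkb1 peaks, 7 (50%) were called higher at 24 h, against 24.2% of all peaks, and 2 (14.3%) lower, against 23%. At 72 h, 5 (35.7%) were called higher, against 28.3%, and 4 (28.6%) lower, against 30.9%. The shares at 72 h are near those of the whole table. Inside the gene, the peak at chr3:135610155-135610655 fell from 207, 399 and 469.8 normalised reads in NSPs to 150.3, 169.6 and 171 at 24 h, 81.1, 84.9 and 87.9 at 72 h and 52.0, 49.9, 50.6 and 55.8 at 1 week. On the log2 scale (± SE) the differences were -1.05 ± 0.21 for 24 h against NSPs and -1.99 ± 0.21 for 72 h against NSPs (adjusted p = 0.000151 and 3.36e-09). The lowest NSP value was that of replicate 1. Another peak inside the gene, at chr3:135623165-135623665, rose from 24.5, 26.9 and 12.6 in NSPs to 58.1, 66.4 and 82.5 at 24 h (1.70). The peak at chr3:135586413-135586913 rose from a mean of 13.4 ± 4.28 (SD) in NSPs to 73.3 ± 9.48 (SD) at 72 h (2.41). At the gene end, the mean fell from 328 ± 13.5 (SD) to 161 ± 17.4 (SD) (-1.03).

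The single Rel peak fell from 1146, 829.1 and 875 normalised reads in NSPs to 625, 668 and 516 at 24 h and stood at 866, 763, 838 and 832 at 1 week. These are log2 changes (± SE) of -0.65 ± 0.13 for 24 h against NSPs and -0.88 ± 0.13 for 72 h against NSPs, with adjusted p = 0.00016 and 1.49e-06. The order of its group means was NSP, 1 week, 72 h TNF, 24 h TNF, 24 h and 72 h. Each neighbouring pair in this order overlapped, the closest to separate being 1 week (763 to 866) and 72 h TNF (619.6 to 780.1). The Relb gene-end peak ran the other way, from 572, 506 and 540.2 in NSPs to 1275, 1283, 1285 and 1153 at 1 week. The log2 change (± SE) was 0.42 ± 0.10 for 24 h against NSPs (adjusted p = 0.00109) and 0.77 ± 0.10 for 72 h against NSPs (adjusted p = 1.46e-07). Of the 10 peaks at starts or gene ends, 5 were called lower at 72 h than in NSPs and 1 higher, and 53.7% of all gene-end peaks were called lower. At 24 h, 2 were lower, against 39.3%. With total-read scaling the count at 72 h became 3 lower and 2 higher.

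Upstream of Nfkbib, 6 peaks lay inside Sirt2, which encodes a protein deacetylase, and they moved in both directions. Against NSPs, 2 were called higher and 4 lower at 24 h, and 1 higher and 3 lower at 72 h. Over all peaks, 24.2% were called higher and 23% lower at 24 h, and 28.3% and 30.9% at 72 h. With total-read scaling the counts of the Sirt2 peaks were 2 and 3 at 24 h and 2 and 3 at 72 h. The peak 5430 bp before the Nfkbib start rose from 54.9, 49.0 and 49.8 normalised reads in NSPs to 100.2, 75.2 and 111 at 24 h (0.87) and 78.5, 98.1 and 84.1 at 72 h (0.75), without overlap. The peak 2602 bp before that start was higher at 24 h (0.58) and was not called at 72 h (-0.16). The peak 8681 bp before the Nfkbib start fell from 173, 129 and 108 normalised reads in NSPs to 12.9, 14.4 and 37.0 at 72 h (-2.75). The peak 7742 bp before that start fell from 439.9, 349 and 377 in NSPs to 229, 223 and 174 at 24 h (-0.90) and 75.8, 58.4, 117 and 72.9 at 1 week. The Gbf1 peak outside Nfkb2 rose from 129.7, 76.8 and 62.5 in NSPs to 184, 198 and 172 at 24 h (1.10).

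**Figure D4:**
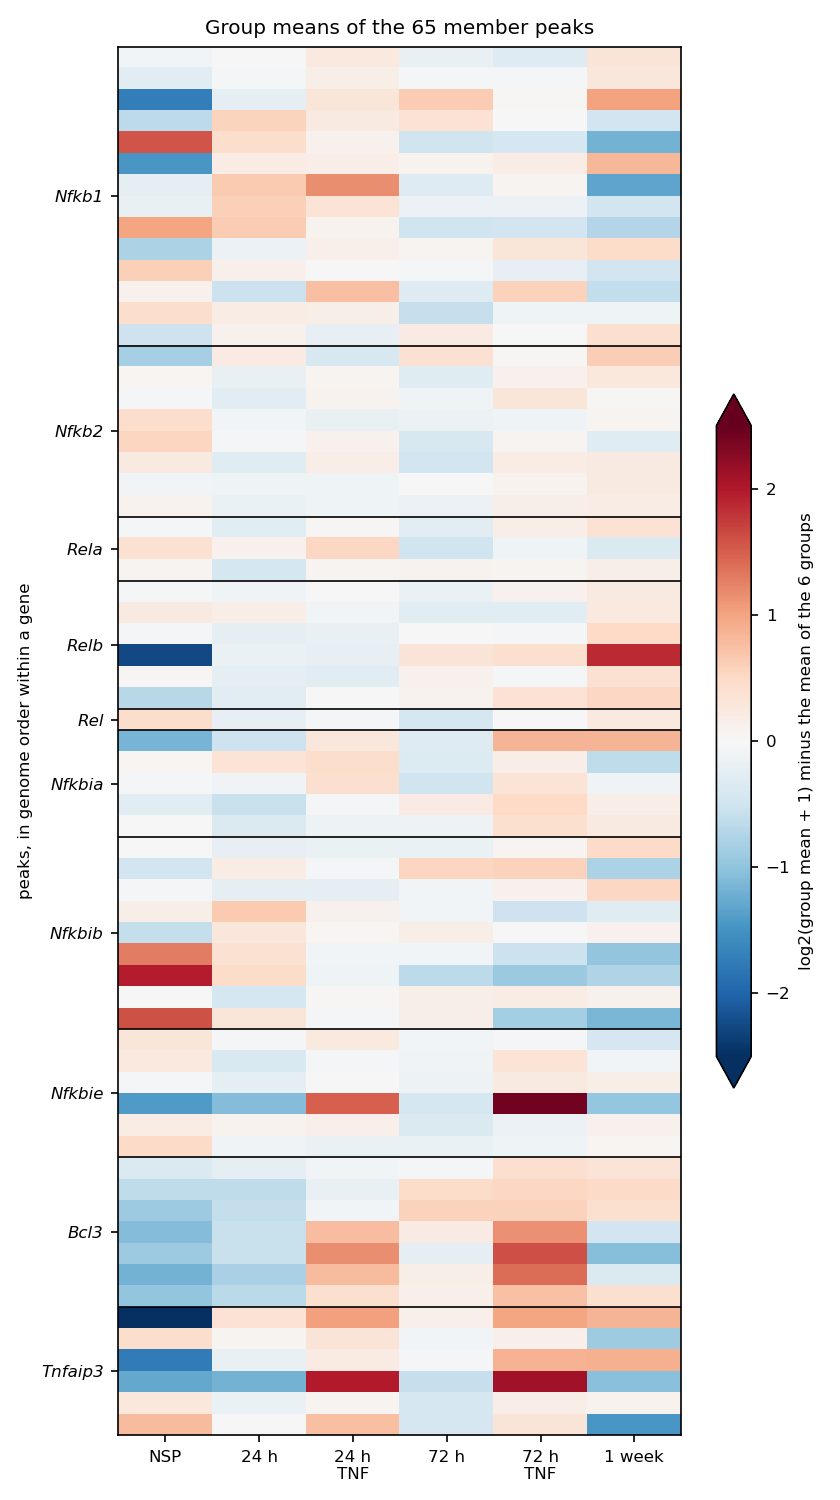
Colour shows log2(group mean + 1) of each of the 65 member peaks (rows, in genome order within a gene) minus its mean over the 6 groups (columns). The rows of the Tnfaip3 and Nfkbie peaks with the largest TNF changes, and of the 4 Bcl3 peaks called at both times, are red in both TNF groups.

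From 72 h to 1 week, 21 member peaks (32.3%) were called higher, against 22.5% of all, and 10 (15.4%) lower, against 16.2%. This split depended on scaling, with 6 higher and 20 lower under total-read scaling, under which the all-peak median went from 0.02 to -0.31, and 7 and 7 under loess scaling. Of the 10 peaks at starts or gene ends, 8 were called higher, and 54% of all gene-end peaks were. Of those 10, 4 were called higher under total-read scaling and 0 under loess scaling, where 3 had an unadjusted p under 0.05 in limma. The distal Nfkbia peak rose to the 1 week values given above, with a log2 change of 1.16 and 0.82 under total-read scaling. The Rela start peak rose to 637, 662, 592 and 707 (0.64), and its change was 0.29 under total-read scaling and not called under loess scaling. The peak at the ends of Mrps12 and Sars2, 16.4 kb past Nfkbib, rose to 1682, 1736, 1734 and 1834 (0.65), and was not called under loess scaling either.

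The falls from 72 h to 1 week were read beside the same 72 h libraries as the TNF comparison. In Bcl3 the peak 5137 bp past the start fell to 47.6, 40.5, 24.2 and 63.3 normalised reads (-0.88). Inside Tnfaip3, the peak 9623 bp past the start fell from 130.0, 116 and 107 at 72 h to 77.6, 58.4, 55.0 and 76.1 at 1 week (-0.82). The peak 19.6 kb before the Tnfaip3 gene fell from 37.3, 38.3 and 49.7 to 23.8, 22.6, 19.8 and 12.9 (-1.07). In Sirt2, the peak 7742 bp before the Nfkbib start fell further (-0.92). The Bcl3, Tnfaip3 and Nfkbib changes stayed called under total-read and loess scaling.

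**Figure D5:**
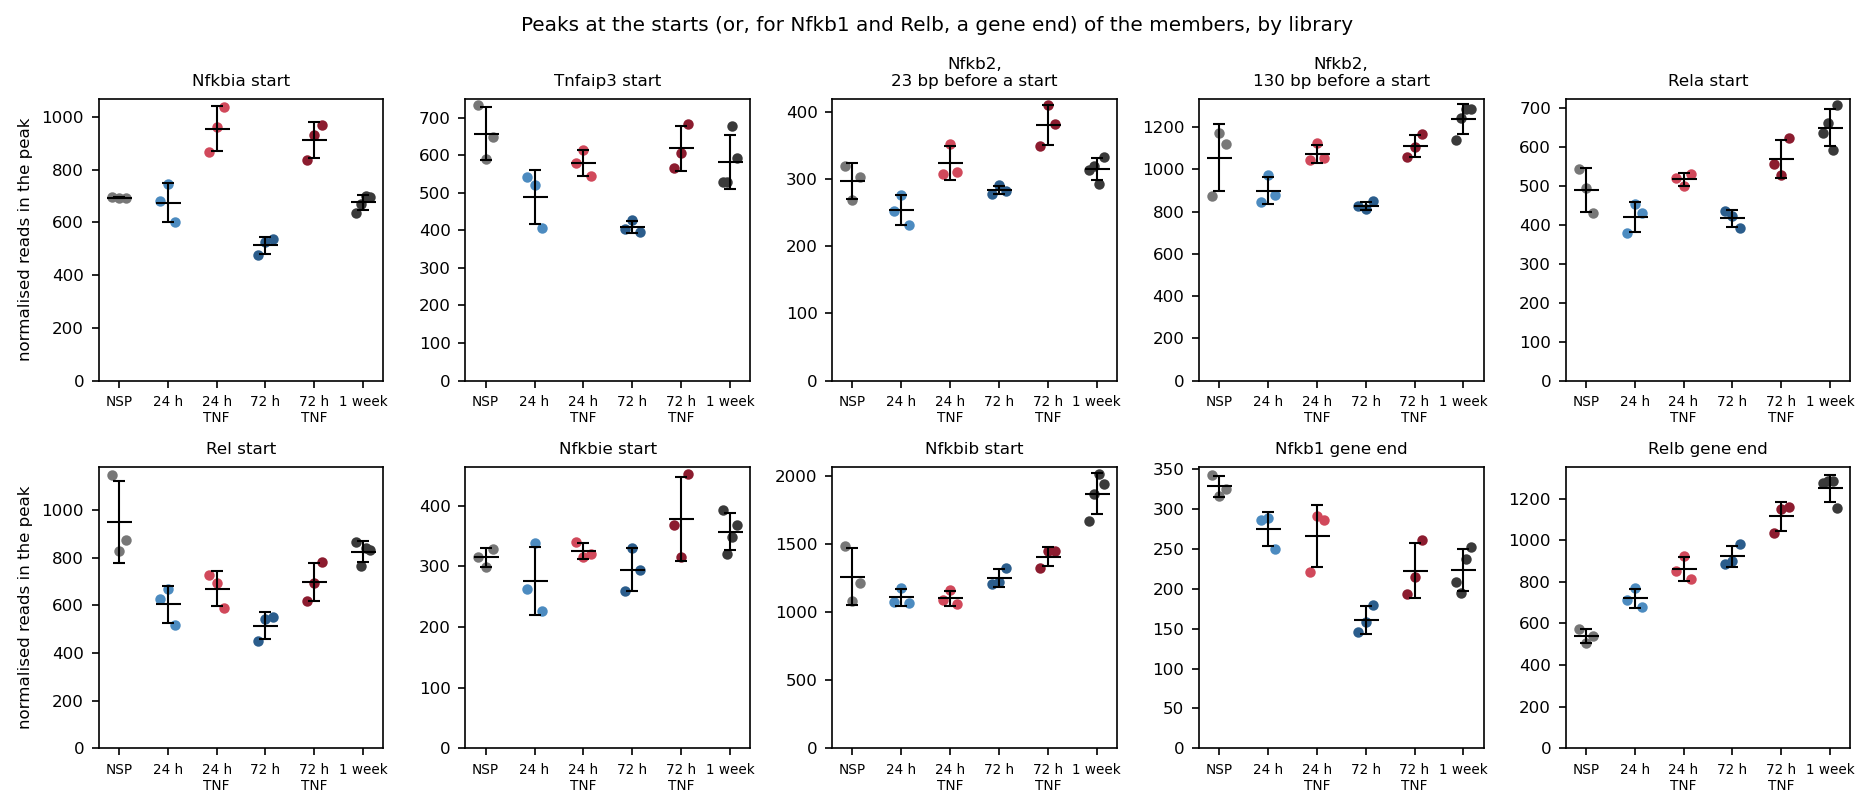
Normalised reads (y axis, from 0) of each library (points) in the 10 peaks at gene starts, or at a gene end for Nfkb1 and Relb, by group (x axis); bars are the mean ± SD of 3 libraries, or 4 at 1 week. At 72 h the mean with TNF is above that without in all 10 panels, and the height at 1 week relative to 72 h depends on the scaling.

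Other components of the pathway were read the same way, from a list of 32 receptors, adaptors, kinases and regulators with 160 peaks. This list and that of target genes below were chosen with earlier results of these data known. At 24 h, 21 (13.1%) were called higher with TNF, against 7.06% of all peaks, and 1 (0.625%) lower, against 3.53%. At 72 h, 18 (11.2%) were higher, against 6.24%, and 4 (2.5%) lower, against 5.55%. The median log2 changes were 0.08 and 0.12, against -0.03 and 0.03 over all peaks. The peak with the smallest p at both times lay at Traf2, an adaptor of the TNF receptor, with means of 282 normalised reads at 24 h and 805 at 24 h TNF and a log2 change of 1.51 ± 0.13 (SE). At Tnip1, whose product works with A20, a peak had means of 26.8 without and 164 with TNF at 24 h, and 35.6 without and 360.2 with TNF at 72 h. Of 29 known NF-κB target genes, 28 had peaks, 125 in all. At 24 h, 26 (20.8%) were higher. The count of lower calls was 0 in limma, edgeR and DESeq2, and 4 peaks were lower at an unadjusted p under 0.05 in limma. At 72 h, 31 (24.8%) were higher and 4 (3.2%) lower, with medians of 0.16 and 0.20. Among them, a peak shared by the chemokine genes Ccl2 and Ccl7 had means of 95.7 without and 361 with TNF at 24 h, and a peak at Ccl5 had means of 20.9 and 235 at 72 h.

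Over the 19 libraries, the gene-end peaks of other genes most like the Nfkbia start peak lay at Nfkbiz (Pearson's r = 0.93), Cebpd (0.91) and Tmem232 (0.88). Those most like the Nfkb2 peak nearest a start lay at Rgs9 (0.85), Cxcl10 (0.85) and Arl6ip5 (0.84). These correlations across libraries on log2(value + 1) describe likeness alone, and the libraries share groups, depth and scaling.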

How the data were processed

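Accessibility was measured by ATAC-seq in 19 libraries of 6 groups of mouse cells. The authors trimmed the reads with Trim Galore, aligned them to mm10 with Bowtie2, removed mitochondrial reads, called peaks with MACS2 and removed blacklisted regions; versions, duplicate handling and the shift for the transposase are not given in the sources used here. The deposited values are signal per peak, whole reads divided by a size factor of each library, and how the authors set that factor is not given in the sources used here. Lower depth, as in the libraries with 9640256 reads in peaks, widens the error of weak peaks.

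Differences were tested with limma-trend (limma 3.58.1, R 4.3.3) on log2(value + 1), with 1 mean per group over all 19 libraries and Benjamini-Hochberg adjustment over the 88919 peaks kept by a minimum count of 10 (1235 were left out). A fold change on this scale understates the change of weak peaks. edgeR 4.0.16 and DESeq2 1.42.0 were run on the recovered whole reads, rounded, as alternatives, because the table held normalised values and not the counts the plan had assumed. Other alternatives were total-read and cyclic loess scaling, a pseudocount of 8, no filter, the compared groups alone, leaving out each library, a replicate block, and windows of 5 and 50 kb around the genes. The fits were tested on simulated data.

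Peaks were named by rule: for each gene the peak nearest its start within 1 kb and those with the smallest p for TNF at each time, and, for each other comparison and direction, the 3 called member peaks of smallest p. Peaks named beyond that rule were chosen after their values were seen: the distal and upstream Nfkbia peaks, the far-end Tnfaip3 peak at 72 h TNF, the Relb peak 3561 bp from a gene end, the other Nfkb2 start peak, the remaining Bcl3 peaks, the Bcl3 fall at 1 week, the examples among other pathway genes, and the Nfkbib peaks in Sirt2. The members and gene lists were chosen with earlier results of these data known. Sample numbers did not pair the libraries, since same-numbered libraries did not deviate together.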

Additional observations from a re-analysis of the deposited data

Results flagged for a closer look

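At the Relb gene-end peak, 1 week replicate 4 stood apart from the other 1 week libraries, with 1153 normalised reads against 1275, 1283 and 1285. Its gap to the nearest library, divided by the range of the 4, exceeded the critical value of Dixon's test, which is 0.829 for 4 samples. Of 29 named peaks tested in the 1 week group it was the 1 that did so, and chance puts about 1 in 20 groups past that limit. All 4 libraries still lay above the 72 h libraries, which ranged from 884 to 981, in the deposited scaling. The log2 change from 72 h to 1 week was 0.44 there. It was 0.09 with total-read and -0.09 with loess scaling, neither of them called.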

How the results depend on the processing

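Of 726 values of the 48 named changes under the alternatives, 673 kept direction and side of the threshold, 37 lost a call, 10 gained one and 6 changed sign. These sign changes were of uncalled values near 0: Nfkb1 peak p55652 with TNF at 24 h, at 0.0707 without 24 h TNF replicate 1 (-0.127 to 0.0707 over such fits), and Nfkbib peak p73138, at 0.0054 with total-read scaling, 0.0488 with loess scaling, and -0.0447 to 0.0401 when a library was left out, above 0 in 3 such fits. The 48 leave out the same peaks in comparisons they were not named for. There, called changes from 72 h to 1 week changed sign under loess scaling, without a call. They went from 0.44 to -0.09 (Relb gene end), 0.40 to -0.07 (Nfkbia start) and 0.58 to -0.05 (Nfkbib start). For 72 h against NSPs, Nfkbib peak p73136 went from an uncalled -0.18 to a called 0.25. With TNF at 24 h, 2 member peaks were called lower, 4 with the compared groups alone and 0 to 1 when a library was left out. With TNF at 72 h, 11 to 15 were called higher when a library was left out, the fewest without 72 h TNF replicate 3. Lower calls there were 2 with total-read scaling (14 higher, 87.5% of calls higher), 1 without the filter, 1 with the compared groups alone and 0 to 1 when a library was left out, and 1.65% of peaks in a 50 kb window. For 24 h against NSPs, the compared groups alone gave 10 higher and 9 lower calls, total-read scaling gave 6 lower calls (76.9% of calls higher, against 51.6%), and a 5 kb window 15% lower. For 72 h against NSPs, the share of calls that were higher was 50%, 63.4% with total-read and 60% with loess scaling. For 1 week against 72 h, total-read scaling gave 6 higher and 20 lower calls (23.1% of calls higher, against 67.7%), and loess scaling gave 7 higher calls (50%). The cause of these shifts was not tested.

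Sample numbers gave no pairing, with correlations of same-numbered deviations from -0.0307 to 0.106. With a replicate block, calls higher and lower were 12 and 2 for TNF at 24 h, 17 and 0 for TNF at 72 h, 16 and 15 for 24 h and 20 and 19 for 72 h against NSPs, and 18 and 9 for 1 week. Numbers in the library names differ from those in the titles at 72 h TNF and as a block gave 13 higher calls there, 3 rather than 7 of them at starts or gene ends, without those at both Nfkb2 start peaks, the Rel peak, the Nfkb1 gene end and the Tnfaip3 far end. Depth limits the weakest peaks, where untreated libraries held a few reads.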
